A study of Mus musculus with 12 samples.

Results

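The genes described here are 42 mouse genes of the integrated stress response and of amino acid supply, chosen by name. They comprise transcription factors and effectors of the response, 2 secreted stress hormones, amino acid transporters, enzymes that make serine, asparagine, proline, alanine and cysteine, enzymes of mitochondrial one-carbon metabolism, and 12 cytosolic tRNA synthetases. Of the 42, 40 were among the 15584 genes of the table, and 39 were among the 13759 genes tested. The hormone genes Gdf15 and Fgf21 had no row and were not analysed here. Pycr1, which makes proline, was listed but lay under the filter on low values.

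RNA came from whole corpus callosum, the white matter tract between the cerebral hemispheres, of wild-type (WT) mice and of mice labelled AHR CKO, in which microglia lack the aryl hydrocarbon receptor, a ligand-activated transcription factor. The 12 libraries formed 4 groups of 3, namely AHR CKO cuprizone (CPZ), AHR CKO control (Ctrl), WT CPZ and WT Ctrl. Cuprizone is a copper chelator that kills oligodendrocytes, so that the tract loses myelin. The sources used here do not state the Cre line, the floxed allele, the dose and length of cuprizone feeding, the control diet, or the age and sex of the mice. They also do not say that replicates are different mice. The spread behind each p-value may thus be partly or wholly technical.

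In the integrated stress response, any of several kinases phosphorylates the initiation factor eIF2, which slows general translation while the mRNA of the transcription factor ATF4 is translated more. ATF4 then pairs with other factors and switches on genes for amino acid uptake, amino acid synthesis, tRNA charging and, under prolonged stress, cell death. ATF4 is controlled largely at translation, so its mRNA level and the activity of its targets are separate measurements. In white matter the response is known above all from oligodendrocytes under toxic or inflammatory stress.

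Levels are given in FPKM, a unit that scales fragments by transcript length and sequencing total. Their sums per library were 519470, 499344 and 484502 in AHR CKO CPZ and 458842, 473426 and 503383 in AHR CKO Ctrl. In WT they were 447156, 467946 and 457594 in CPZ and 453914, 472073 and 451091 in Ctrl. Every AHR CKO CPZ sum thus lay above every WT CPZ sum. Calls after rescaling to a common total are given below. No gene was listed at 0 in 5 of the 6 WT libraries, whereas 94 were in WT CPZ replicate 2 and 52 to 80 in each AHR CKO library, so this property of the files runs almost along the genotype. Whether all libraries were processed together is not stated, so in AHR CKO against WT comparisons genotype and the making of the files cannot be told apart. Ahr itself was listed at 1.48, 1.76 and 2.57 FPKM in AHR CKO CPZ, 1.79, 1.41 and 2.07 in AHR CKO Ctrl, 1.73, 1.85 and 2.01 in WT CPZ, and 2.22, 1.48 and 1.65 in WT Ctrl. These values did not part the genotypes. The deleted exons are not given and the tissue is whole, so they do not check the labels. The microglial receptor gene Cx3cr1 was listed at 1.16, 22.7 and 29.6 FPKM in AHR CKO CPZ and at 1.05, 9.60 and 0.801 in AHR CKO Ctrl, against 49.4 to 69.4 in WT CPZ and 22.6 to 24.9 in WT Ctrl. The AHR CKO libraries thus differed among themselves in it. These values do not show whether they share one genotype, and every AHR CKO against WT value holds for the libraries as labelled. The 9 oligodendrocyte markers (among them the myelin genes Mbp and Mog) summed to 9708 to 18350 FPKM in the 6 control libraries.

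ATF4 and its partners bind a composite DNA element whose core is written TGATGNAA, or TTNCATCA on the other strand. Of the 42 genes here, 33 had a promoter in the RefSeq set (GRCm38.p6). Of these 33, 10 held this motif on either strand within the 250 bases before the RefSeq start site, which is 30.3%. Of all 27025 genes with a promoter 1056 held it, or 3.91%. The genes were chosen by name as genes of this response and of amino acid supply, so these shares are descriptions. The 5 sequences below are those of the holders whose mRNA results carry most of the account: Atf3, Nupr1, Chac1 and Slc7a11, all higher with cuprizone in at least 1 genotype, and Asns, which was not. Capitals mark the motif, each sequence reads 5′ to 3′ along the gene's own strand, with up to 18 flanking bases on each side.
Atf3: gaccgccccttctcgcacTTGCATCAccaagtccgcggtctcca
Nupr1: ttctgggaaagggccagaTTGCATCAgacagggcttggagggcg
Chac1: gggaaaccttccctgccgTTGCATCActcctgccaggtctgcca
Slc7a11: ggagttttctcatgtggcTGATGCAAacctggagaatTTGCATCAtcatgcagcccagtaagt
Asns: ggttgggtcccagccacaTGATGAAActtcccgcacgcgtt

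These stretches lie at chr1:191183418-191183461 for Atf3, chr7:126625555-126625598 for Nupr1, chr3:50443635-50443697 for Slc7a11 and chr6:7693210-7693250 for Asns, all on the minus strand, and at chr2:119351031-119351074 on the plus strand for Chac1. The Slc7a11 promoter held the motif in both orientations, 66 and 47 bases before the start. The other holders were Aars, Gars, Tars, Pycr1 and Fgf21. As GENCODE M21 places the genes, the stretches of Atf3, Nupr1, Asns and Aars lie inside the gene, downstream of its outermost start. That of Tars does so in part. The motif stood in 5 of the 18 promoters of genes called higher with cuprizone in either genotype (27.8%) and in 3 of the 12 promoters of tested genes called in neither (25.0%), so its presence did not part the genes that rose from those that did not pass the test. A match describes the letters in this window and is not evidence of binding.

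With cuprizone, genes of the response rose in both genotypes and none fell past the threshold. In AHR CKO tissue 21 of the 39 tested genes rose in CPZ against Ctrl (53.85%), where 10.2% of all genes were called in either direction and 7.22% were called higher (limma on log2(FPKM + 1), Benjamini-Hochberg adjusted p under 0.05, as for every call in this text). In WT tissue 17 of 39 rose (43.59%), where 16.9% of all genes were called and 9.08% were called higher. Their median log2 change was 0.56 in AHR CKO and 0.33 in WT, while the median over all genes was -0.01 in AHR CKO and -0.04 in WT. All 3 CPZ libraries lay above all 3 Ctrl libraries for 31 of the 39 genes in AHR CKO, where 14.3% of all genes did so (28.9% did not overlap in either direction). In WT this held for 22 of 39, where 15.8% of all genes did so (34.7% in either direction). The tested genes include Atf3 and Trib3, which passed the filter through their cuprizone libraries, so these counts are descriptions.

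The 16 genes called higher in both genotypes were Atf3, Atf5, Ddit3, Cebpg, Nupr1, Trib3, Sesn2, Eif4ebp1, Slc7a11, Slc7a5, Slc3a2, Psph, Mthfd2, Aldh1l2, Aldh18a1 and Eprs. Aars, Chac1, Lars, Ppp1r15a and Shmt2 passed the test in AHR CKO and not in WT, Gpt2 passed it in WT and not in AHR CKO, and 17 genes passed it in neither. A call in one genotype and not in the other does not show a difference, and the test of the difference itself is given further on. In whole tissue, more RNA per cell and more cells of a type that expresses a gene cannot be told apart.

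Markers of cell types moved with cuprizone. The 9 oligodendrocyte markers summed to 4142 to 5186 FPKM in AHR CKO CPZ against 9708 to 10400 in AHR CKO Ctrl, and to 3144 to 3788 in WT CPZ against 10090 to 18350 in WT Ctrl. The 7 microglial markers summed to 519 to 871 FPKM in AHR CKO CPZ against 223 to 229 in AHR CKO Ctrl, and to 779 to 1166 in WT CPZ against 253 to 274 in WT Ctrl. Of these lists, 8 of 9 oligodendrocyte markers fell in AHR CKO, where 2.98% of all genes were called lower, and 9 of 9 in WT, where 7.81% were, and 4 of 7 microglial markers rose in each genotype. The 6 astrocyte markers summed to 1220 to 2055 FPKM in AHR CKO CPZ against 644 to 789 in AHR CKO Ctrl, and to 1796 to 2293 in WT CPZ against 814 to 947 in WT Ctrl, with 3 of 6 rising in AHR CKO and 4 of 6 in WT. The 6 choroid plexus and ependymal markers summed to 1033 to 3740 FPKM in AHR CKO CPZ against 427.8 to 3570 in AHR CKO Ctrl. In WT they summed to 70.1 to 2979 in CPZ against 59.2 to 180.4 in Ctrl, with 1 of 6 falling in WT and none called in AHR CKO. No listed marker of these lists was at 0 in every library, and the part of these markers' cells in the results below was not tested.

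**Figure D1:**
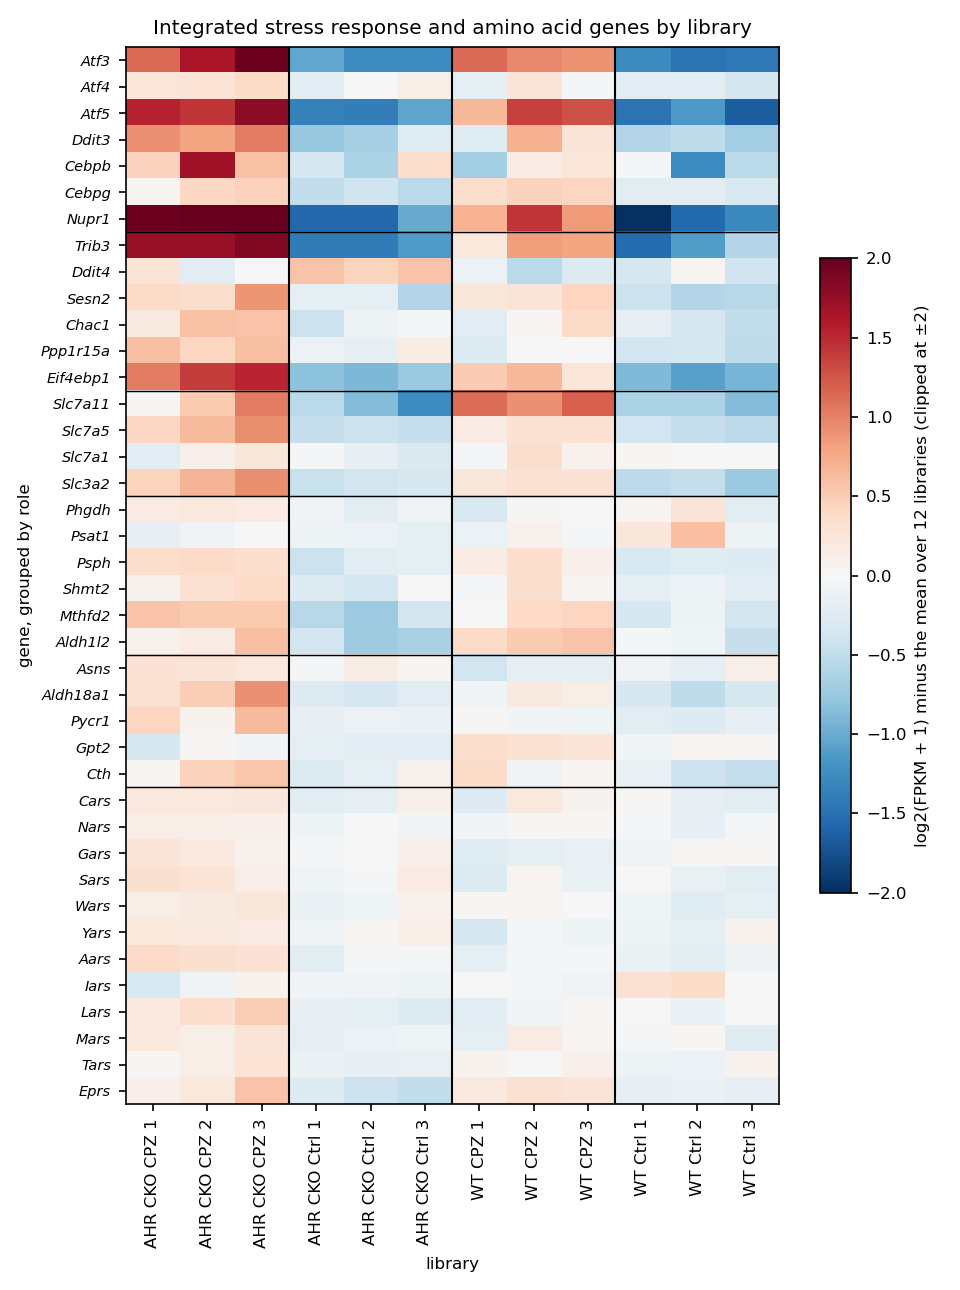
Heat map of the 40 listed genes (rows, grouped by role) in the 12 libraries (columns, AHR CKO CPZ, AHR CKO Ctrl, WT CPZ, WT Ctrl from left). Colour gives the difference of log2(FPKM + 1) from the gene's mean over all libraries, cut off at 2 in either direction. The transcription factors, effectors and transporters are mostly above their mean in the 6 CPZ libraries, while most tRNA synthetases are above it mainly in the 3 AHR CKO CPZ libraries.

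Among the 7 transcription factors, 5 rose in both genotypes. Their summed level was 529 to 629 FPKM in AHR CKO CPZ against 168 to 219 in AHR CKO Ctrl, and 299.8 to 470.2 in WT CPZ against 160.2 to 179.5 in WT Ctrl. Atf5, a bZIP factor of the same family as ATF4 that is induced under amino acid and mitochondrial stress, was listed at 153, 142 and 183 FPKM in AHR CKO CPZ, 19.8, 19.4 and 24.5 in AHR CKO Ctrl, 83.3, 136 and 128 in WT CPZ, and 18.2, 22.9 and 16.0 in WT Ctrl. Every CPZ library was above every Ctrl library, and the lowest CPZ library was WT CPZ replicate 1. The mean was 7.53 times higher in CPZ in AHR CKO (log2 change 2.85 ± 0.18 SE, adjusted p = 5.5e-06) and 6.08 times higher in WT (2.53 ± 0.18, adjusted p = 5.2e-06). Atf5 (GRCm38 chromosome 7, 44812256 to 44816658, minus strand) shares up to 82 exon bases with Il4i1 and Nup62. Il4i1, an enzyme that oxidises aromatic amino acids, averaged 3.31 ± 1.01 FPKM in AHR CKO CPZ, 0.730 ± 0.156 in AHR CKO Ctrl, 3.60 ± 0.391 in WT CPZ and 1.12 ± 0.203 in WT Ctrl (SD, n = 3). Strand-specific counting is not stated, so reads from the shared bases cannot be told apart.

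Atf3, an early stress factor that also marks injured neurons and reactive glia, was at low levels in control tissue. It was listed at 8.4, 12.3 and 15.7 FPKM in AHR CKO CPZ, 1.08, 0.796 and 0.803 in AHR CKO Ctrl, 8.37, 7.29 and 6.998 in WT CPZ, and 0.761, 0.534 and 0.587 in WT Ctrl. Neither genotype's CPZ libraries came near its Ctrl libraries, and the folds of the means were 13.6 in AHR CKO (log2 2.76 ± 0.18, adjusted p = 5.5e-06) and 12.04 in WT (2.39 ± 0.18, adjusted p = 5.2e-06). Since Atf3 was tested because of its CPZ levels, these p-values carry that choice. With no filter on low values the adjusted p was 1.11e-05 in AHR CKO and 8.71e-06 in WT. On log2(FPKM + 1) Nupr1, a small chromatin-associated stress protein, showed the largest changes of the 39 genes. By fold of means it rose 12.3 times in AHR CKO, less than Trib3 (24.75) and Atf3, and 7.17 times in WT, less than Atf3. Nupr1 was listed at 103, 105 and 137 FPKM in AHR CKO CPZ, 7.93, 7.96 and 12.1 in AHR CKO Ctrl, 42.0, 70.5 and 46.6 in WT CPZ, and 4.23, 8.07 and 9.90 in WT Ctrl. All 3 AHR CKO CPZ libraries exceeded all WT CPZ libraries, and these exceeded all Ctrl libraries (log2 3.49 ± 0.27, adjusted p = 1.14e-05 in AHR CKO, and 2.71 ± 0.27, adjusted p = 2.65e-05 in WT).

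Ddit3, which encodes CHOP, the factor that links prolonged stress to cell death, was listed at 123, 112 and 132 FPKM in AHR CKO CPZ, 37.7, 40.6 and 54.5 in AHR CKO Ctrl, 54.7, 107 and 77.7 in WT CPZ, and 42.6, 45.0 and 39.4 in WT Ctrl. The AHR CKO CPZ libraries were tightly placed above all others, while the WT CPZ libraries were spread, with replicate 1 near the control range. Ddit3 rose 2.76-fold in AHR CKO (log2 1.46 ± 0.20, adjusted p = 0.000473) and 1.88-fold in WT (0.85 ± 0.20, adjusted p = 0.0109). It shares 68 exon bases with the synthetase gene Mars, whose levels are given with the synthetases. Cebpg, the common dimer partner of ATF4, rose less but evenly, averaging 19.8 ± 3.14 FPKM in AHR CKO CPZ against 10.96 ± 0.577 in AHR CKO Ctrl (log2 0.79 ± 0.11, adjusted p = 0.000409), and 21.2 ± 0.918 in WT CPZ against 13.0 ± 0.477 in WT Ctrl (0.66 ± 0.11, adjusted p = 0.000872).

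Atf4 itself did not pass the test in any comparison. It was listed at 122, 125 and 135 FPKM in AHR CKO CPZ, 88.8, 103 and 113 in AHR CKO Ctrl, 89.99, 124 and 101 in WT CPZ, and 88.7, 89.2 and 80.2 in WT Ctrl. The CPZ libraries lay above the Ctrl libraries of the same genotype, by a little in WT, where the lowest CPZ and the highest Ctrl library almost met. The log2 difference was 0.33 in AHR CKO (95% interval 0.07 to 0.59, adjusted p = 0.113) and 0.28 in WT (0.01 to 0.54, adjusted p = 0.149). Cebpb, another dimer partner, was low and scattered. Its 3 values were 4.23, 11.3 and 4.68 FPKM in AHR CKO CPZ against 2.05, 1.46 and 3.85 in AHR CKO Ctrl, and 1.36, 3.19 and 3.49 in WT CPZ against 2.68, 0.594 and 1.62 in WT Ctrl. It missed the threshold in AHR CKO (log2 1.11 ± 0.39, adjusted p = 0.104) and in WT (0.51 ± 0.39, adjusted p = 0.430).

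**Figure D2:**
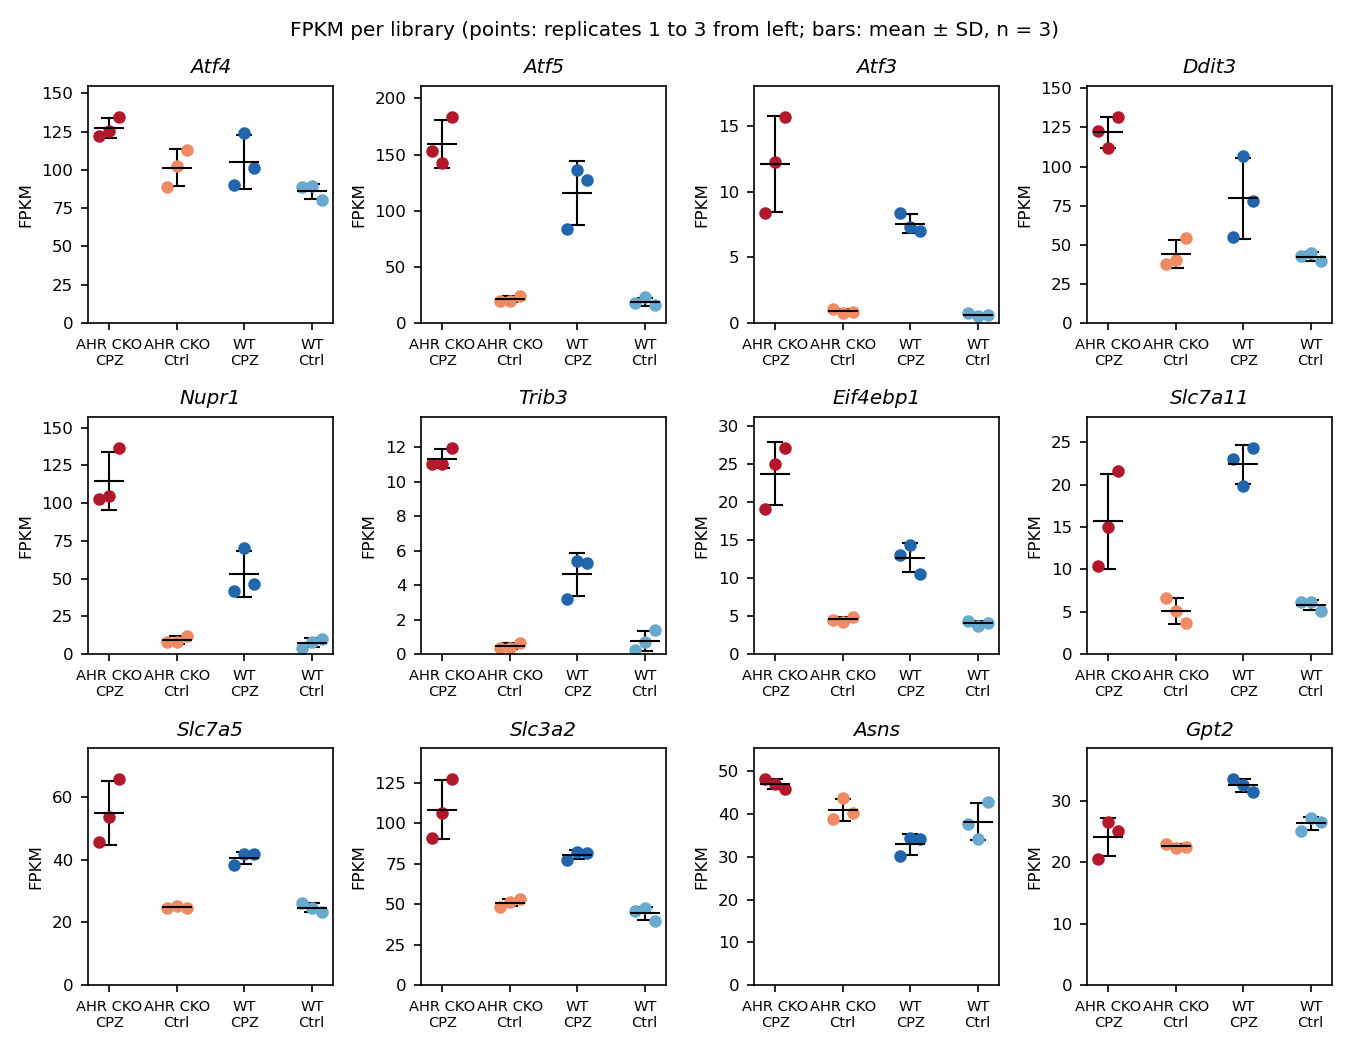
FPKM (linear axis from 0) of single genes in the 3 libraries of each group, with points for libraries and black bars for the mean ± SD. Atf5, Nupr1, Trib3 and Eif4ebp1 are high in all CPZ libraries and highest in AHR CKO CPZ, whereas Atf4 shifts little between groups.

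Of the 6 effectors, 5 rose with cuprizone in AHR CKO and 3 in WT. Trib3, a pseudokinase that dampens ATF4 and AKT signalling, was listed at 10.996, 11.04 and 11.96 FPKM in AHR CKO CPZ, 0.368, 0.369 and 0.636 in AHR CKO Ctrl, 3.18, 5.40 and 5.26 in WT CPZ, and 0.246, 0.668 and 1.41 in WT Ctrl. The AHR CKO CPZ libraries were highest, the WT CPZ libraries lay between, and the Ctrl libraries were together at the bottom. The log2 change was 3.08 ± 0.22 in AHR CKO (adjusted p = 7.74e-06) and 1.69 ± 0.22 in WT (adjusted p = 0.000197). Trib3 too was tested because of its CPZ levels, and with no filter the adjusted p was 1.31e-05 in AHR CKO and 0.000273 in WT. Eif4ebp1, which encodes the translation repressor that holds the cap-binding factor, was listed at 19.1, 25.0 and 27.1 FPKM in AHR CKO CPZ, 4.53, 4.27 and 4.89 in AHR CKO Ctrl, 13.0, 14.4 and 10.6 in WT CPZ, and 4.35, 3.63 and 4.14 in WT Ctrl. The same order of ranges appeared. The folds of the means were 5.20 in AHR CKO (log2 2.14 ± 0.14, adjusted p = 5.5e-06) and 3.14 in WT (1.43 ± 0.14, adjusted p = 2.36e-05).

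Sesn2, a leucine sensor that restrains mTORC1, rose to 8.404 ± 2.05 FPKM in AHR CKO CPZ against 4.11 ± 0.741 in AHR CKO Ctrl (log2 0.87 ± 0.15, adjusted p = 0.00287) and to 6.88 ± 0.580 in WT CPZ against 3.43 ± 0.262 in WT Ctrl (0.83 ± 0.15, adjusted p = 0.00226). Ppp1r15a encodes the phosphatase subunit that dephosphorylates eIF2 and so ends the response. It was listed at 13.6, 11.8 and 13.6 FPKM in AHR CKO CPZ, 7.81, 7.58 and 9.61 in AHR CKO Ctrl, 6.92, 8.61 and 8.58 in WT CPZ, and 6.37, 6.46 and 5.70 in WT Ctrl. The AHR CKO CPZ libraries lay above all others and the WT Ctrl libraries below all others, while AHR CKO Ctrl and WT CPZ overlapped. The change passed the test in AHR CKO (log2 0.59 ± 0.11, adjusted p = 0.00544) while WT gave 0.33 ± 0.11 (adjusted p = 0.0703).

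Chac1, which breaks down glutathione, averaged 7.26 ± 1.27 FPKM in AHR CKO CPZ against 4.30 ± 0.761 in AHR CKO Ctrl (log2 0.64 ± 0.17, adjusted p = 0.0374), and 5.36 ± 1.35 in WT CPZ against 3.81 ± 0.545 in WT Ctrl (0.39 ± 0.17, adjusted p = 0.160). The AHR CKO call for Chac1 was lost when any of 5 single libraries was left out, with an adjusted p of up to 0.159. Ddit4, an mTORC1 inhibitor that is also a glucocorticoid and hypoxia target, went the other way in AHR CKO without passing the test. Its values were 41.6, 28.8 and 34.3 FPKM in AHR CKO CPZ, 51.2, 46.5 and 50.8 in AHR CKO Ctrl, 31.2, 23.2 and 27.97 in WT CPZ, and 26.4, 35.4 and 25.5 in WT Ctrl. The AHR CKO Ctrl libraries were the highest of all, and the cuprizone difference was -0.51 ± 0.15 in AHR CKO (adjusted p = 0.0567) and -0.08 ± 0.15 in WT (adjusted p = 0.792).

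The amino acid transporters rose in both genotypes except Slc7a1. Slc7a11, the exchanger that imports cystine for glutathione synthesis, was listed at 10.4, 14.99 and 21.6 FPKM in AHR CKO CPZ, 6.59, 5.04 and 3.61 in AHR CKO Ctrl, 23.0, 19.8 and 24.3 in WT CPZ, and 6.13, 6.12 and 5.09 in WT Ctrl. Its AHR CKO CPZ and WT CPZ libraries overlapped, and both lay above all Ctrl libraries. It rose with cuprizone in AHR CKO (log2 1.43 ± 0.22, adjusted p = 0.00127) and in WT (1.78 ± 0.22, adjusted p = 0.000141). Slc7a5, which imports leucine and other large neutral amino acids, was listed at 45.7, 53.6 and 65.8 FPKM in AHR CKO CPZ, 24.5, 25.3 and 24.6 in AHR CKO Ctrl, 38.3, 41.8 and 41.7 in WT CPZ, and 26.1, 24.7 and 23.4 in WT Ctrl. Control libraries of both genotypes were alike, and all CPZ libraries stood above them (log2 1.10 ± 0.11, adjusted p = 6.42e-05 in AHR CKO, and 0.69 ± 0.11, adjusted p = 0.000884 in WT).

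Slc3a2 encodes the heavy chain that both of these transporters need to reach the membrane, and its mRNA moved with them. Its values were 90.8, 107 and 127 FPKM in AHR CKO CPZ, 48.4, 51.2 and 53.0 in AHR CKO Ctrl, 77.5, 82.4 and 81.5 in WT CPZ, and 46.0, 47.3 and 39.5 in WT Ctrl. CPZ and Ctrl libraries did not overlap in either genotype (log2 1.06 ± 0.11, adjusted p = 9.74e-05 in AHR CKO, and 0.85 ± 0.11, adjusted p = 0.000223 in WT). Slc7a1, the carrier of arginine and lysine, averaged 8.15 ± 1.43 FPKM in AHR CKO CPZ against 6.97 ± 0.697 in AHR CKO Ctrl and 8.83 ± 1.31 in WT CPZ against 7.91 ± 0.145 in WT Ctrl, with overlapping libraries in both genotypes (log2 difference 0.19, 95% interval -0.09 to 0.47, in AHR CKO, and 0.13, -0.15 to 0.42, in WT).

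Of the 3 enzymes of serine synthesis, 1 passed the test. Phgdh, which commits glycolytic carbon to serine, was listed at 80.5, 83.4 and 79.9 FPKM in AHR CKO CPZ, 68.1, 61.8 and 67.9 in AHR CKO Ctrl, 57.6, 72.7 and 71.6 in WT CPZ, and 74.1, 85.6 and 61.8 in WT Ctrl. The AHR CKO CPZ libraries were above their controls, the WT libraries overlapped, and neither difference passed the test (log2 0.30, 95% interval 0.04 to 0.56, adjusted p = 0.148 in AHR CKO, and -0.13, -0.39 to 0.13, adjusted p = 0.527 in WT). Psat1, the second enzyme, averaged 117 ± 6.57 FPKM in AHR CKO CPZ against 111 ± 3.998 in AHR CKO Ctrl, and 121 ± 8.67 in WT CPZ against 148 ± 36.1 in WT Ctrl (log2 0.07, -0.24 to 0.37, in AHR CKO, and -0.27, -0.57 to 0.04, in WT). Psph, the phosphatase of the last step, rose in both genotypes. It was listed at 25.1, 25.8 and 24.5 FPKM in AHR CKO CPZ, 14.3, 16.7 and 17.1 in AHR CKO Ctrl, 21.8, 24.9 and 21.0 in WT CPZ, and 15.6, 16.3 and 16.1 in WT Ctrl. CPZ and Ctrl libraries were well apart (log2 0.62 ± 0.09, adjusted p = 0.000679 in AHR CKO, and 0.47 ± 0.09, adjusted p = 0.00290 in WT).

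The mitochondrial folate enzymes pass the one-carbon unit of serine on, and Mthfd2 and Aldh1l2 rose in both genotypes. Mthfd2 was listed at 14.3, 13.7 and 13.7 FPKM in AHR CKO CPZ, 5.997, 5.21 and 6.99 in AHR CKO Ctrl, 9.28, 12.6 and 12.9 in WT CPZ, and 7.19, 8.58 and 6.93 in WT Ctrl. The gap was wide in AHR CKO (log2 1.08 ± 0.13, adjusted p = 0.000230) and narrow in WT (0.55 ± 0.13, adjusted p = 0.0128), where the call was lost without WT CPZ replicate 3 (adjusted p = 0.0605). Aldh1l2, which oxidises formyl-folate to form NADPH, averaged 2.98 ± 0.785 FPKM in AHR CKO CPZ against 1.18 ± 0.285 in AHR CKO Ctrl (log2 0.86 ± 0.17, adjusted p = 0.00525), and 3.53 ± 0.299 in WT CPZ against 1.86 ± 0.438 in WT Ctrl (0.67 ± 0.17, adjusted p = 0.0144), the WT call being lost without WT Ctrl replicate 3 or WT CPZ replicate 3 (adjusted p of up to 0.0583). It shares 1056 exon bases with D10Wsu102e, which averaged 8.37 FPKM in AHR CKO CPZ, 8.21 in AHR CKO Ctrl, 9.18 in WT CPZ and 9.51 in WT Ctrl. Shmt2, which splits serine into glycine and a one-carbon unit, averaged 13.8 ± 1.65 FPKM in AHR CKO CPZ against 9.83 ± 1.47 in AHR CKO Ctrl (log2 0.45 ± 0.13, adjusted p = 0.0401), a call lost without any of 7 single libraries (adjusted p of up to 0.166), and 12.4 ± 1.76 in WT CPZ against 9.97 ± 0.428 in WT Ctrl (0.28 ± 0.13, adjusted p = 0.151).

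Asns, asparagine synthetase and the classical ATF4 target in amino acid starvation, did not pass the test with cuprizone. Its values were 48.2, 47.2 and 46.0 FPKM in AHR CKO CPZ, 38.9, 43.8 and 40.3 in AHR CKO Ctrl, 30.1, 34.5 and 34.2 in WT CPZ, and 37.7, 34.2 and 42.8 in WT Ctrl. The AHR CKO CPZ libraries lay above their controls, whereas the WT CPZ libraries overlapped theirs from below (log2 0.20, 95% interval -0.00 to 0.40, adjusted p = 0.218 in AHR CKO, and -0.21, -0.41 to -0.00, adjusted p = 0.161 in WT). Aldh18a1, the first enzyme of proline synthesis from glutamate, rose in both genotypes, to 15.3 ± 3.57 FPKM in AHR CKO CPZ against 7.92 ± 0.377 in AHR CKO Ctrl (log2 0.84 ± 0.14, adjusted p = 0.00165) and to 10.4 ± 0.948 in WT CPZ against 7.26 ± 0.637 in WT Ctrl (0.46 ± 0.14, adjusted p = 0.0369, lost without any of 8 single libraries, adjusted p of up to 0.127). Pycr1, the last proline enzyme, was listed at 1.23, 0.743 and 1.56 FPKM in AHR CKO CPZ, 0.481, 0.519 and 0.512 in AHR CKO Ctrl, 0.687, 0.592 and 0.564 in WT CPZ, and 0.436, 0.384 and 0.484 in WT Ctrl, and was not tested.

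Gpt2, the mitochondrial alanine aminotransferase, was listed at 20.6, 26.7 and 25.2 FPKM in AHR CKO CPZ, 23.0, 22.4 and 22.6 in AHR CKO Ctrl, 33.6, 32.7 and 31.5 in WT CPZ, and 25.2, 27.2 and 26.7 in WT Ctrl. WT CPZ stood above every other group, and the cuprizone change was called in WT (log2 0.30 ± 0.09, adjusted p = 0.0416) and not in AHR CKO (0.08 ± 0.09, adjusted p = 0.633). The WT call was lost without any of 9 single libraries (adjusted p of up to 0.131). Cth, which makes cysteine from cystathionine, averaged 3.47 ± 0.805 FPKM in AHR CKO CPZ against 2.21 ± 0.429 in AHR CKO Ctrl, and 2.77 ± 0.616 in WT CPZ against 1.76 ± 0.364 in WT Ctrl, and missed the threshold in both (log2 0.47 ± 0.17, adjusted p = 0.115 in AHR CKO, and 0.45 ± 0.17, adjusted p = 0.102 in WT).

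**Figure D3:**
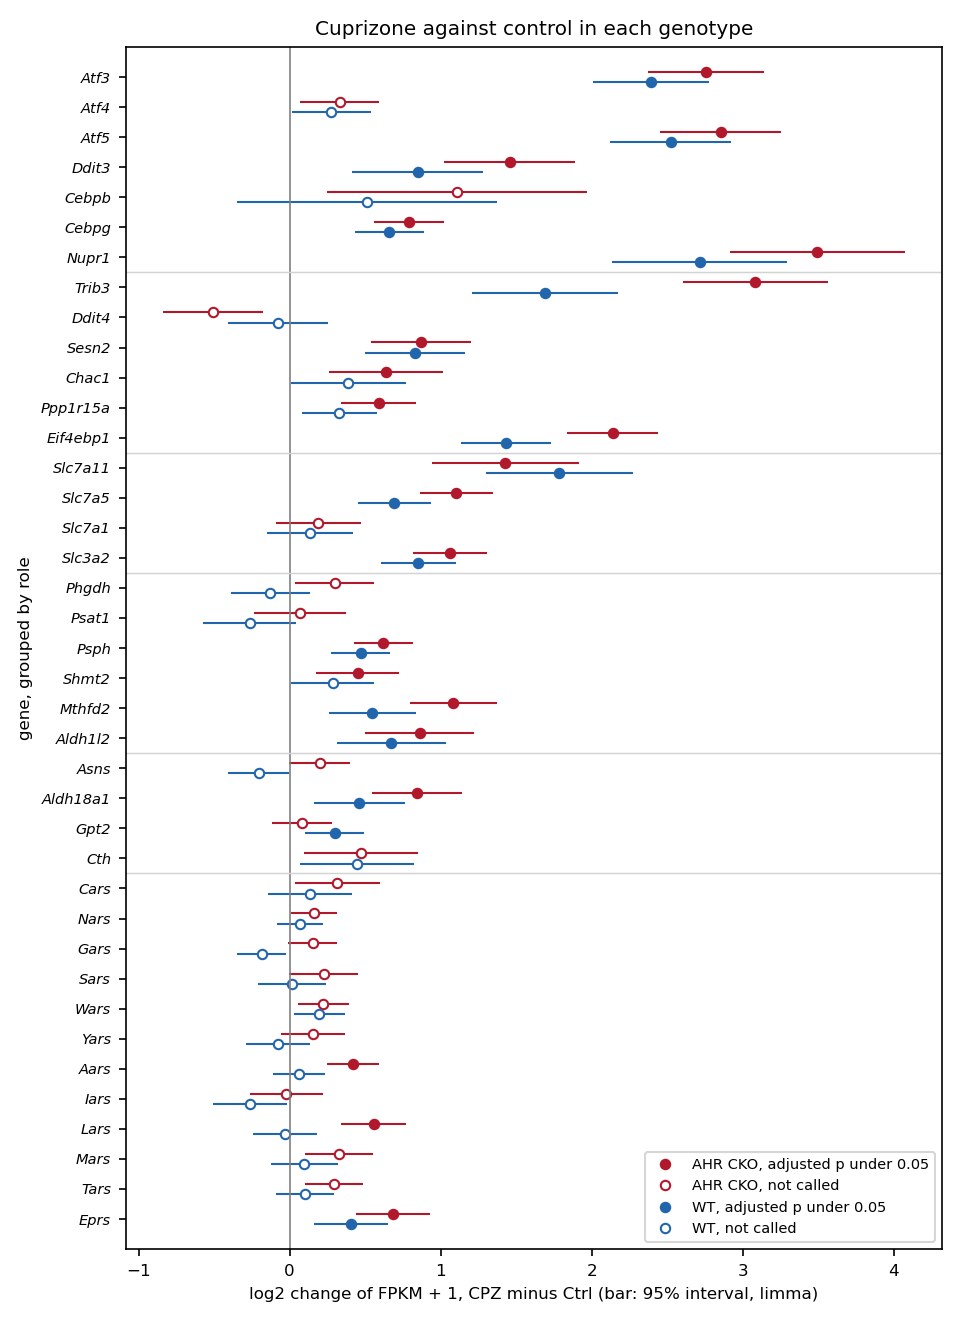
Log2 change of FPKM + 1 with cuprizone (horizontal axis, CPZ minus Ctrl) of each of the 39 tested genes (rows, grouped by role) in AHR CKO (red) and WT (blue), with 95% intervals from limma and filled points for calls. On this scale Nupr1, at 3.49 in AHR CKO and 2.71 in WT, is farthest to the right.

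The 12 cytosolic tRNA synthetases, which charge tRNAs with their amino acids, had their highest sum in AHR CKO CPZ. Their summed level was 472.7 to 475.8 FPKM in AHR CKO CPZ, 376.3 to 411.6 in AHR CKO Ctrl, 375.7 to 417.4 in WT CPZ and 378.3 to 397.1 in WT Ctrl. The 3 AHR CKO CPZ libraries thus lay above all 9 others, which overlapped among themselves. In AHR CKO 3 of 12 rose with cuprizone (Aars, Lars and Eprs), with a median log2 change of 0.26, and in WT 1 of 12 rose (Eprs), with a median of 0.07. That is 25.0% in AHR CKO, where 7.22% of all genes were called higher, and 8.33% in WT, where 9.08% were.

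Eprs, which charges both glutamate and proline, was listed at 25.9, 28.3 and 36.6 FPKM in AHR CKO CPZ, 20.1, 17.8 and 17.01 in AHR CKO Ctrl, 27.98, 30.03 and 29.1 in WT CPZ, and 21.5, 22.0 and 21.5 in WT Ctrl. Cuprizone and control libraries were apart in both genotypes (log2 0.69 ± 0.11, adjusted p = 0.00169 in AHR CKO, and 0.40 ± 0.11, adjusted p = 0.0261 in WT), and the WT call was lost without any single WT library (adjusted p of up to 0.0732). Aars, for alanine, was listed at 67.2, 64.3 and 63.1 FPKM in AHR CKO CPZ, 44.1, 50.5 and 50.3 in AHR CKO Ctrl, 45.5, 50.2 and 50.3 in WT CPZ, and 47.1, 44.2 and 48.2 in WT Ctrl. Only AHR CKO CPZ stood apart (log2 0.42 ± 0.08, adjusted p = 0.00490 in AHR CKO, and 0.06 ± 0.08, adjusted p = 0.652 in WT). Aars shares 1326 exon bases with Exosc6, which averaged 12.8 ± 3.86 FPKM in AHR CKO CPZ, 10.4 ± 1.85 in AHR CKO Ctrl, 8.23 ± 1.91 in WT CPZ and 7.71 ± 0.788 in WT Ctrl, so its level is uncertain to that extent. Overlaps of 12 to 32 exon bases with a neighbouring gene were found for Ppp1r15a, Shmt2 and Yars. Lars, for leucine, was listed at 13.7, 15.2 and 17.2 FPKM in AHR CKO CPZ, 10.4, 10.2 and 9.62 in AHR CKO Ctrl, 10.1, 11.3 and 12.1 in WT CPZ, and 11.8, 10.7 and 11.8 in WT Ctrl. Again the AHR CKO CPZ libraries were the highest, and the change passed in AHR CKO (log2 0.56 ± 0.10, adjusted p = 0.00294) while WT gave -0.03 ± 0.10 (adjusted p = 0.878).

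For the other 9 synthetases the log2 difference with cuprizone ran from -0.02 (Iars, isoleucine) to 0.33 (Mars, methionine) in AHR CKO and from -0.26 (Iars) to 0.20 (Wars, tryptophan) in WT. None passed the test in either genotype. Mars averaged 20.6 ± 1.09 FPKM in AHR CKO CPZ against 16.2 ± 0.636 in AHR CKO Ctrl (adjusted p = 0.0653), and 18.2 ± 2.31 in WT CPZ against 16.9 ± 1.71 in WT Ctrl (adjusted p = 0.578). Nars (asparagine) was the most abundant per length, at 89.2 ± 1.29 FPKM in AHR CKO CPZ, 79.7 ± 3.21 in AHR CKO Ctrl, 82.1 ± 2.37 in WT CPZ and 78.3 ± 4.14 in WT Ctrl. Cars (cysteine), Tars (threonine) and Iars were among the lowest, with group means of 12.6 to 16.1 FPKM for Cars, 10.5 to 13.1 for Tars and 14.8 to 18.7 for Iars.

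**Figure D4:**
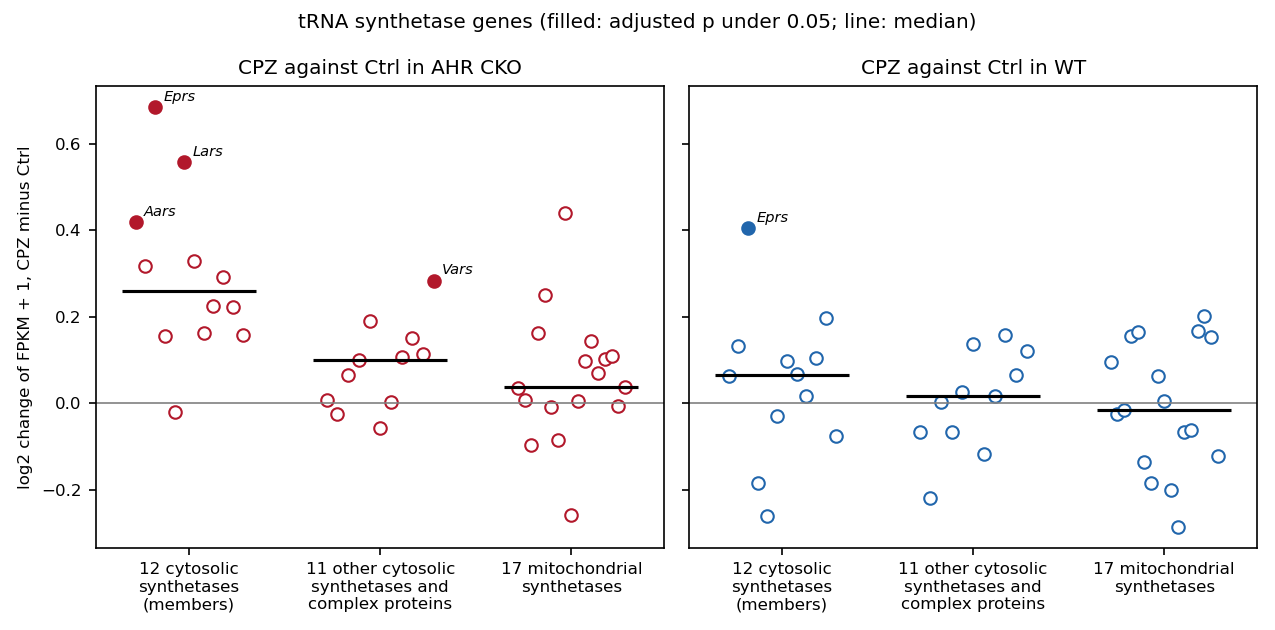
Log2 change of FPKM + 1 with cuprizone (vertical axis, CPZ minus Ctrl) of tRNA synthetase genes in AHR CKO (left panel) and WT (right panel), 1 point a gene, with lines for the medians and filled points for calls. The 12 cytosolic synthetases have medians of 0.26 in AHR CKO and 0.07 in WT, and the other lists shown are the 11 further cytosolic synthetases and complex proteins and the 17 mitochondrial synthetases.

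Under cuprizone, AHR CKO tissue had higher levels of much of the response than WT tissue. In AHR CKO CPZ against WT CPZ 15 of the 39 genes were higher and 1 was lower (41.03% called), where 20.0% of all genes were called, 9.14% higher and 10.8% lower. The median log2 difference was 0.29, against 0.00 over all genes. All AHR CKO CPZ libraries lay above all WT CPZ libraries for 21 of the 39 genes, where 18.9% of all genes did so. The genes called higher were Atf3, Ddit3 and Nupr1 among the transcription factors, Trib3, Eif4ebp1 and Ppp1r15a among the effectors, the transporter pair Slc7a5 and Slc3a2, the enzymes Asns and Aldh18a1, and the synthetases Aars, Gars, Sars, Yars and Lars. Gpt2 was lower, and none of the 6 serine and one-carbon enzymes passed.

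Among the called genes the largest differences were in Trib3 (2.46-fold by means, log2 1.16 ± 0.22, adjusted p = 0.00826), Nupr1 (2.16-fold, 1.12 ± 0.27, adjusted p = 0.0164) and Eif4ebp1 (1.87-fold, 0.85 ± 0.14, adjusted p = 0.00515). Their library values are given above. Ddit3 (log2 0.66 ± 0.20, adjusted p = 0.0379), Ppp1r15a (0.63 ± 0.11, adjusted p = 0.00717) and Atf3 (0.58 ± 0.18, adjusted p = 0.0379) followed. In Trib3, Nupr1, Eif4ebp1, Ddit3, Ppp1r15a and Atf3 every AHR CKO CPZ library was above every WT CPZ library, with Atf3 separated by a narrow margin. Slc7a5 (log2 0.42 ± 0.11, adjusted p = 0.0246), Slc3a2 (0.41 ± 0.11, adjusted p = 0.0277) and Aldh18a1 (0.50 ± 0.14, adjusted p = 0.0275) also passed. Asns differed between genotypes under cuprizone although it passed the test with cuprizone in neither genotype, with a log2 difference of 0.51 ± 0.09 (adjusted p = 0.00749). Gpt2 was 0.741 times the WT CPZ mean in AHR CKO CPZ (log2 -0.43 ± 0.09, adjusted p = 0.0117).

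Among the synthetases, Gars (glycine) was listed at 54.4, 52.4 and 48.5 FPKM in AHR CKO CPZ and at 38.5, 39.6 and 41.2 in WT CPZ (log2 0.37 ± 0.07, adjusted p = 0.00969). Sars (serine) was listed at 67.2, 65.2 and 58.8 FPKM in AHR CKO CPZ and at 44.4, 55.7 and 49.2 in WT CPZ (0.35 ± 0.10, adjusted p = 0.0346). Yars (tyrosine) was listed at 47.8, 46.8 and 45.7 FPKM in AHR CKO CPZ and at 32.5, 40.3 and 38.2 in WT CPZ (0.33 ± 0.10, adjusted p = 0.0329). For none of these 3 genes did the genotypes overlap under cuprizone. In Ctrl the AHR CKO and WT means were 46.4 and 45.4 FPKM for Gars, 54.4 and 49.1 for Sars, and 41.9 and 39.1 for Yars. The WT CPZ libraries of Gars lay below all its WT Ctrl libraries, while its AHR CKO CPZ and Ctrl libraries overlapped. Aars (0.41 ± 0.08, adjusted p = 0.00910) and Lars (0.42 ± 0.10, adjusted p = 0.0149) are given with their library values above and also passed. Slc7a11 did not pass and had the opposite sign (log2 -0.54, 95% interval -1.03 to -0.05, adjusted p = 0.103), and Atf5 missed the threshold with a positive one (0.48, 0.08 to 0.89, adjusted p = 0.0789).

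These genotype differences under cuprizone rest on few libraries. Without WT CPZ replicate 1, the lowest WT CPZ library for Atf4, Atf5, Ddit3, Nupr1 and Trib3, 7 of the 39 genes were called, where 8.34% of all genes were. Without WT CPZ replicate 3 there were 8, where 8.73% of all genes were called, and without AHR CKO CPZ replicate 2 there were 9, where 10.7% were. The count over all genes was lowest without AHR CKO CPZ replicate 1 (5.65%). Of the genes of the list called with all 12 libraries, only Ddit3, Sars and Yars then lost their calls. Trib3, Ppp1r15a, Eif4ebp1, Asns, Gpt2, Gars and Aars were called with any single library left out, while the other 9 were lost in at least 1 such fit (adjusted p of up to 0.121). When the 3 AHR CKO CPZ libraries were set against WT CPZ replicate 2 alone, the only WT CPZ library that also lists genes at 0, none of the 39 genes passed. Over all genes 11 were then higher and 8 lower. This fit has 1 WT CPZ library, assumed to vary like the other groups. Trib3 then differed by 0.94 (adjusted p = 0.0932), Nupr1 by 0.68 (adjusted p = 0.197), Asns by 0.44 (adjusted p = 0.143), Ddit3 by 0.19 (adjusted p = 0.618) and Gpt2 by -0.43 (adjusted p = 0.195) on the log2 scale. With all 12 libraries, rescaling to a common total left 8 calls, where 21.5% of all genes were called, 4.55% higher and 16.9% lower. Sample quality weights gave 26, where they called 58.4% of all genes.

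Markers of cell types also differed between the genotypes under cuprizone. The oligodendrocyte markers summed to 4142 to 5186 FPKM in AHR CKO CPZ and to 3144 to 3788 in WT CPZ, with 2 of 9 higher (Aspa and Mag), where 9.14% of all genes were called higher and 10.8% lower. The microglial markers summed to 519 to 871 in AHR CKO CPZ and to 779 to 1166 in WT CPZ, with 2 of 7 lower. These 7 include Cx3cr1, which differed among the AHR CKO libraries as given above. Its AHR CKO CPZ mean was 0.301 times the WT CPZ mean, the lowest ratio of the 7. The astrocyte markers summed to 1220 to 2055 in AHR CKO CPZ and to 1796 to 2293 in WT CPZ, with 1 of 6 lower. All 7 microglial and all 6 astrocyte markers had a negative difference. Of the other lists, 1 of 4 endothelial markers was lower, and 1 of 4 fibroblast, 1 of 6 neuronal and 1 of 6 choroid plexus and ependymal markers were higher. These last, led by Ttr, summed to 1033 to 3740 FPKM in AHR CKO CPZ and to 70.1 to 2979 in WT CPZ. They varied strongly within groups. The part of these differences in the results above was not tested.

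**Figure D5:**
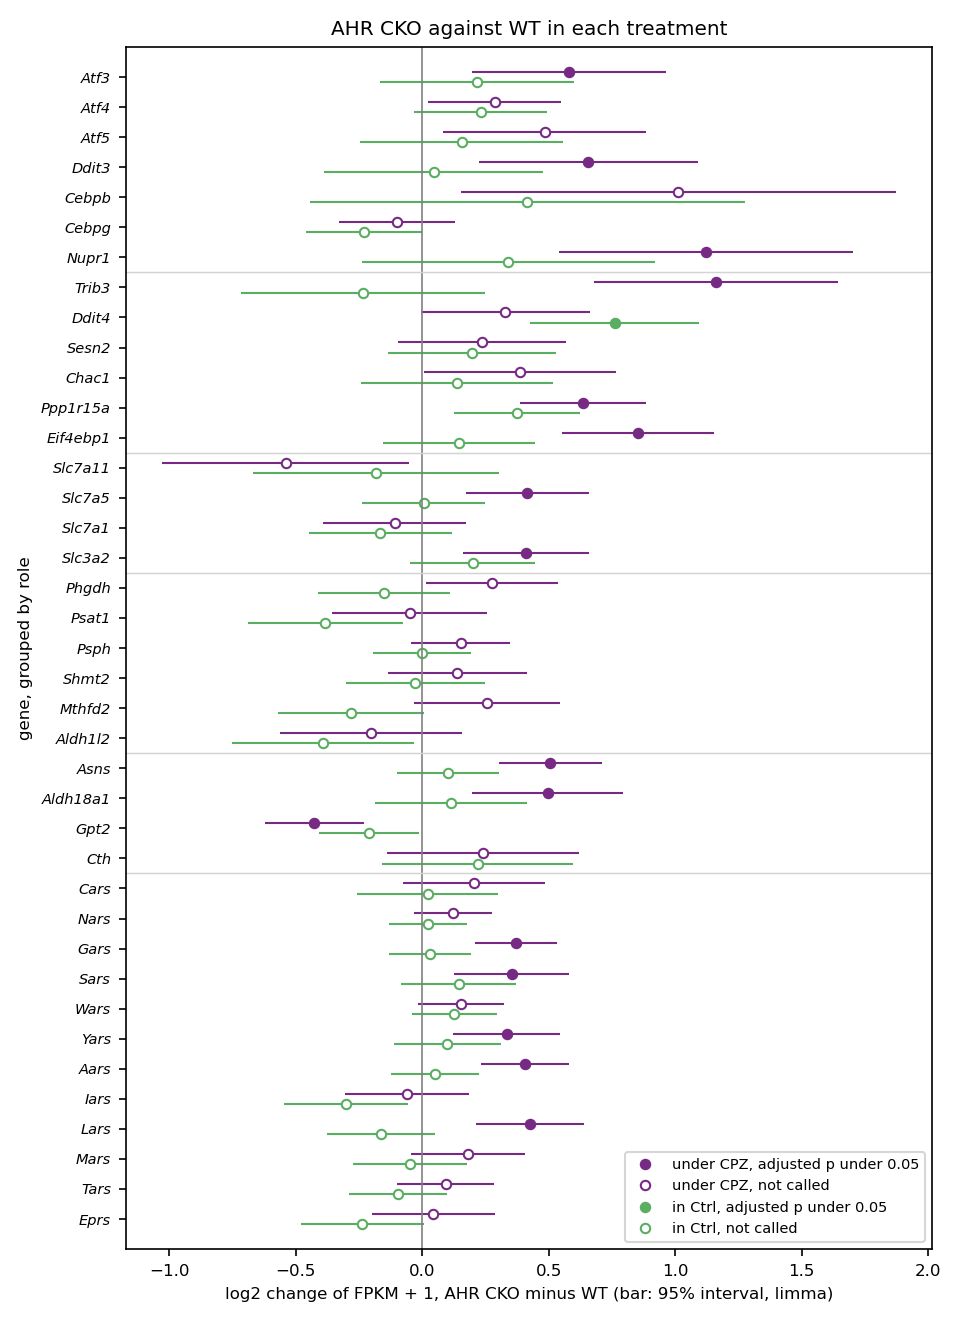
Log2 difference of FPKM + 1 between genotypes (horizontal axis, AHR CKO minus WT) of the 39 tested genes (rows, grouped by role) under CPZ (purple) and in Ctrl (green), with 95% intervals from limma and filled points for calls. Trib3 and Nupr1 show the largest differences under CPZ, 1.16 and 1.12, and Ddit4 the largest in Ctrl, 0.76.

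Without cuprizone, in AHR CKO Ctrl against WT Ctrl, 1 of the 39 genes was higher and none was lower (2.56% called), where 6.19% of all genes were called, 1.42% higher and 4.76% lower. At an unadjusted p under 0.05 there were 7, where 27.6% of all genes were under it. The calls over all genes also rest on few libraries: 8 genes were left without WT Ctrl replicate 1, 12 without WT Ctrl replicate 2, 7 without AHR CKO Ctrl replicate 2, 4 without AHR CKO Ctrl replicate 3 and 51 with the replicate number as a block. The libraries did not overlap for 4 genes with AHR CKO Ctrl higher and 7 with it lower, where 13.5% of all genes were higher and 21.9% lower in this sense. The 1 call was Ddit4, 1.70 times higher by means in AHR CKO Ctrl (log2 0.76 ± 0.15, adjusted p = 0.0304), with library values as given above. It was lost without WT Ctrl replicate 1, WT Ctrl replicate 2, AHR CKO Ctrl replicate 2 or AHR CKO Ctrl replicate 3 (adjusted p of up to 0.120), and without WT Ctrl replicate 3 there were 3 calls. Under cuprizone Ddit4 did not pass between genotypes (log2 0.33 ± 0.15, adjusted p = 0.139). Among cell type markers in Ctrl, 2 of 4 fibroblast markers were higher in AHR CKO, and 1 of 9 oligodendrocyte and 1 of 6 astrocyte markers lower. All 9 oligodendrocyte differences were negative. The choroid plexus and ependymal markers summed to 427.8 to 3570 FPKM in AHR CKO Ctrl and to 59.2 to 180.4 in WT Ctrl, with none called. No marker of the other lists was called. The part of these differences was not tested.

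The difference in the cuprizone effect between genotypes was tested directly as the genotype by treatment interaction. None of the 39 genes passed, where 0.0363% of all genes did, 0.0145% with a positive and 0.0218% with a negative estimate (limma). At an unadjusted p under 0.05 there were 9, where 9.56% of all genes were under it, and limma with sample quality weights called 16, where it called 18.6% of all genes. Over all genes the median estimate was 0.03 on the log2 scale (-0.04 after rescaling to a common total), and the share with a positive estimate was not counted. The estimates were positive, that is, the change was more positive in AHR CKO, for 36 of the 39 genes, with a median of 0.24. The largest were Trib3 (1.40, 95% interval 0.71 to 2.08, adjusted p = 0.200), Nupr1 (0.78, -0.04 to 1.60, adjusted p = 0.542), Eif4ebp1 (0.71, 0.28 to 1.13, adjusted p = 0.281), Ddit3 (0.61, -0.00 to 1.22, adjusted p = 0.522), Cebpb (0.60, -0.62 to 1.81, adjusted p = 0.803) and Lars (0.59, 0.28 to 0.89, adjusted p = 0.212). The 9 oligodendrocyte markers were all positive too, with a median of 1.02, 9 of 9 under an unadjusted p of 0.05 and 1 called. Their part in the estimates was not tested. These 4 comparisons and the interaction share libraries, so the sign of one is not independent of the others.

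Genes upstream of ATF4 were counted as a list of their own. Of 13 genes for the eIF2 kinases, eIF2 and its exchange factor eIF2B, 2 rose with cuprizone in AHR CKO (15.4%) and 1 in WT (7.69%), where 7.22% of all genes were called higher in AHR CKO and 9.08% in WT. Among 13 genes a single call makes 7.69%. The kinase Eif2ak2, which senses double-stranded RNA and is interferon-induced, rose to 4.17 ± 1.25 FPKM in AHR CKO CPZ against 1.88 ± 0.777 in AHR CKO Ctrl (log2 0.86 ± 0.23, adjusted p = 0.0352) and to 4.74 ± 1.17 in WT CPZ against 1.52 ± 0.108 in WT Ctrl (1.17 ± 0.23, adjusted p = 0.00383). Eif2s2, the beta subunit of eIF2, rose in AHR CKO (log2 0.40 ± 0.08, adjusted p = 0.00827). Under cuprizone the eIF2B subunit gene Eif2b3 was higher in AHR CKO (log2 0.56 ± 0.10, adjusted p = 0.00717) and the haem-regulated kinase gene Eif2ak1 lower (-0.32 ± 0.08, adjusted p = 0.0214). Phosphorylation of eIF2 was not measured.

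Of 17 other genes linked to ATF4 in the literature, 7 rose with cuprizone in AHR CKO and none fell, and 5 rose and 2 fell in WT, which is 41.2% called in each genotype, where 10.2% of all genes were called in AHR CKO and 16.9% in WT. Slc1a5, a carrier of glutamine and other neutral amino acids, was listed at 9.56, 9.91 and 15.1 FPKM in AHR CKO CPZ, 1.64, 1.28 and 1.97 in AHR CKO Ctrl, 6.68, 5.42 and 4.65 in WT CPZ, and 1.51, 2.67 and 1.55 in WT Ctrl. Its ranges were ordered as for Trib3 and Eif4ebp1, without overlap of CPZ and Ctrl or of the genotypes under cuprizone (log2 2.23 ± 0.20, adjusted p = 2.63e-05 in AHR CKO, 1.19 ± 0.20, adjusted p = 0.00117 in WT, and 0.91 ± 0.20, adjusted p = 0.0125, for AHR CKO against WT under cuprizone). Pck2, the mitochondrial enzyme that makes phosphoenolpyruvate (log2 0.64 in AHR CKO and 0.54 in WT), Slc1a4, a carrier of alanine, serine and cysteine (0.49 in AHR CKO and 0.55 in WT), and Fam129a (0.59 in AHR CKO and 0.76 in WT) also rose in both. Fam129a was under 1 FPKM in all 6 Ctrl libraries and was tested because of its CPZ levels. Slc6a9, a glycine transporter, fell in WT to 14.8 ± 0.733 FPKM in CPZ against 38.8 ± 7.44 in Ctrl (-1.32 ± 0.15, adjusted p = 8.91e-05) and was listed at 25.9 ± 4.89 in AHR CKO CPZ against 32.8 ± 4.42 in AHR CKO Ctrl (-0.33 ± 0.15, adjusted p = 0.209). Between genotypes under cuprizone 3 of the 17 were higher in AHR CKO and 1 was lower (23.53% called), where 20.0% of all genes were called. The differences were positive for 9 and negative for 8, with a median of 0.045, so Slc1a5 does not stand for the list. In Ctrl 2 were lower in AHR CKO and none was higher (11.76%), where 6.19% of all genes were called.

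Synthetases and enzymes of folate metabolism and glycine cleavage outside the list were also counted. Of 11 further cytosolic synthetases and proteins of their complex, 1 rose with cuprizone in AHR CKO (Vars, for valine) and none in WT. That is 9.09% in AHR CKO, where 7.22% of all genes were called higher. Under cuprizone Aimp2, Eef1e1, Vars and Hars were higher in AHR CKO than WT tissue, by 0.27 to 0.41 on the log2 scale. That is 36.4% of the list, where 20.0% of all genes were called and 9.14% were called higher. Of 17 mitochondrial synthetases none was called with cuprizone in either genotype by limma. At an unadjusted p under 0.05 there were 3 in AHR CKO and 1 in WT, where 24.1% of all genes in AHR CKO and 29.6% in WT were under it. Under cuprizone Fars2 and Sars2 were higher and Mars2 lower in AHR CKO than WT tissue (17.65% called, where 20.0% of all genes were). Fars2 and Sars2 were also higher in AHR CKO without cuprizone (log2 0.40 each, adjusted p = 0.0323 for Fars2 and 0.0415 for Sars2), which is 11.76% called, where 6.19% of all genes were. Of 10 tested genes of folate metabolism and glycine cleavage outside the list, Aldh1l1, an astrocyte enzyme, and Gcsh rose in both genotypes. Mthfs rose in AHR CKO (0.82 ± 0.20, adjusted p = 0.0195), and Shmt1 fell in WT (-0.55 ± 0.14, adjusted p = 0.0155). That is 3 of 10 called in each genotype (30.0%), where 10.2% of all genes were called in AHR CKO and 16.9% in WT. Aldh1l1 averaged 42.2 ± 2.92 FPKM in AHR CKO CPZ against 27.6 ± 1.19 in AHR CKO Ctrl, and 36.8 ± 2.73 in WT CPZ against 25.3 ± 2.69 in WT Ctrl. The motif TGATGNAA was in none of the promoters found for the further cytosolic synthetases (8), the mitochondrial synthetases (14) or these folate and glycine cleavage genes (9). It was in 4 of 14 of the other ATF4-linked genes.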

How the data were processed

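Per the labels' protocols, libraries of corpus callosum RNA were prepared using SMARTER mRNA-Seq. The deposited values are FPKM computed by the authors, 12 sample columns in 1 table, per the file headers. The genome was GRCm38 (mm10), per the submitters' processing notes; aligner, quantifier, annotation, strandedness and filters: not given in the sources used here. An FPKM table holds no read number, so depth is unknown and no count test was run.

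Genes of at least 1 FPKM in at least 3 of 12 libraries were tested. Tests used log2(FPKM + 1), a scale on which the changes of low genes come out too small. A model of 4 group means over all 12 libraries was fitted with limma 3.58.1 in R 4.3.3 (eBayes with trend). P-values are two-sided, Benjamini-Hochberg adjusted over 13759 genes within a comparison, and called under 0.05. Folds are ratios of mean FPKM, and means carry the SD over 3 libraries. Every gene of the list is named, and of each other list up to 4 called genes with the smallest adjusted p in a comparison. The genes, lists and marker sets were chosen with earlier results of these data known. Promoters are RefSeq's, and exon overlaps were counted in GENCODE M21 (GRCm38). Replicate numbers are shared between groups and were not used to pair libraries in the fit reported. Same-numbered libraries did not regularly deviate together, which cannot exclude a pairing. Alternatives of scaling, filter, pseudocount, prior, weights, block and left-out libraries are given at the end.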

Additional observations from a re-analysis of the deposited data

How the results depend on the processing

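No called gene of the 39 changed direction under any alternative. Leaving out single libraries gave 19 to 24 calls for cuprizone in AHR CKO (21 in the fit reported) and 12 to 17 in WT (17), 7 to 17 for AHR CKO against WT under cuprizone (16), 0 to 3 in controls (1) and 0 to 0 for the interaction (0), and 19 of 21, 12 of 17, 7 of 16 and 0 of 1 calls were kept without any single library. Sample quality weights raised the counts to 36 for cuprizone in AHR CKO and 26 in WT, 26 for AHR CKO against WT under cuprizone, 10 in controls and 16 for the interaction, where they called 35.2%, 37.1%, 58.4%, 32.5% and 18.6% of all genes. AHR CKO against WT under cuprizone had 8 calls after rescaling to a common total (TPM), where 21.5% of all genes were called. This scaling moved the median of all genes to -0.11. There were 7 calls when only the groups compared were fitted, where 7.78% of all genes were called. The cause was not tested. TPM scaling also changed the split over all genes, with 626 higher and 2332 lower in place of 1257 and 1490 in that comparison, and 763 higher and 530 lower in place of 993 and 410 for cuprizone in AHR CKO. With the replicate number as a block there were 20 calls for cuprizone in AHR CKO and 15 in WT, where 7.61% and 14.1% of all genes were called. There were 14 for AHR CKO against WT under cuprizone, where 13.1% were called, 0 in controls (0.371%) and 0 for the interaction (0%). The correlations of same-numbered libraries ran from -0.343 to 0.25, which shows no regular pairing by number and cannot exclude one. Alternatives chosen after seeing the data were a length and GC correction and the use of only libraries that list genes at 0, which left 1 WT library. The correction gave 9 calls under cuprizone between genotypes and 0 in controls, where it called 7.22% and 0.396% of all genes. Both alternatives gave 21 calls for cuprizone in AHR CKO, 1 of them lower. There 10.1% of all genes were called under the correction and 8.52% with only those libraries. TPM scaling likewise gave 1 lower call there. The remaining alternatives stayed within 1.5 times the reported counts. FPKM gives no depth, so the limit that read number sets on low genes such as Pycr1, Cebpb and Aldh1l2 is unknown.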
